A study of Homo sapiens with 2 samples.

Results

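The genes described here are 7 RNA processing genes whose transcription start site (TSS) lies at a CREB peak: HNRNPA3, TBL3, SMU1, RBM23, SRSF11, CCNK and NUFIP1. They were chosen by name from the authors' table of peaks within 50 kb of a TSS, in view of their peaks, and are 7 of the 2495 gene symbols of that table. Each had 1 row there, joined to the peak list by the peak's name. The fold, summit position and q of these peaks are therefore a description of how the genes were chosen, with no test.

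The study immunoprecipitated CREB with its bound DNA and sequenced it (ChIP-seq) in NGP cells with no treatment named. NGP is an established line from a human neuroblastoma, a childhood tumour of the sympathetic nervous system, and was grown in medium with 20% fetal bovine serum until 80 to 90% confluent. There was 1 CREB ChIP library and 1 input library of DNA without immunoprecipitation. Only peaks of the ChIP library were analysed here, so no value has an error between cultures. The submitters' stated question was which genes CAMKV, a relative of the calcium/calmodulin-dependent kinases, controls directly through CREB.

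CREB is a transcription factor that binds the cAMP response element (CRE), the palindrome TGACGTCA, or its shorter core TGACG, and activates transcription when phosphorylated by kinases that respond to cAMP or calcium. Many of its known sites lie close to the TSS of genes with CpG-rich promoters. RNA processing covers the steps from the growing transcript to a finished RNA: SR and hnRNP proteins bind the pre-mRNA and guide splice site choice, the spliceosome removes introns, snoRNPs and the small-subunit processome modify and cut ribosomal RNA, and cyclin-dependent kinases of the elongation machinery phosphorylate RNA polymerase II.

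The promoter sequences below are shown because they hold the matches to the CRE core found nearest to these summits. They come from RefSeq (GRCh38.p14), in windows of 250 bases before to 50 after a TSS, which were found for 6 of the 7 genes. SMU1 had no entry. All are written 5′ to 3′ in the direction of the gene named, and capitals mark TGACG or its reverse complement CGTCA, the core of the CRE. Positions are counted from the RefSeq TSS, with minus for upstream. The TBL3 stretch runs from −150 to −1 at chr16:1971903-1972052 on the plus strand, and the CCNK stretch from −100 to −1 at chr14:99481309-99481408 on the plus strand. The NUFIP1 stretch runs from −95 to −1 at chr13:44989472-44989566 on the minus strand, and the SRSF11 stretch from −130 to 3 at chr1:70205566-70205699 on the plus strand. For HNRNPA3 a short piece from −84 to −55 is given, at chr2:177212710-177212739 on the plus strand. It is followed by a stretch of the divergent gene LOC105373759, from −150 to −40 at chr2:177212451-177212561 on the minus strand, which holds the summit of the HNRNPA3 peak.
TBL3: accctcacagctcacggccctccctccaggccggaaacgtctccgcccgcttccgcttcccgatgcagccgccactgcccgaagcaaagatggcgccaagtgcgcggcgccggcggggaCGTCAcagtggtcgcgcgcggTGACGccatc
CCNK: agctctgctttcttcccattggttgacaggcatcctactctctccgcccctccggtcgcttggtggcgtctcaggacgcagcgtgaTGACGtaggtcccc
NUFIP1: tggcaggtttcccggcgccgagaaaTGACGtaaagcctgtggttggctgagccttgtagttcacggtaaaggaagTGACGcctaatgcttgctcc
SRSF11: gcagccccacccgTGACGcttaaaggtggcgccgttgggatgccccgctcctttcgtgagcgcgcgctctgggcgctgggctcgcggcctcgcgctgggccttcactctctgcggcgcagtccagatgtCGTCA
HNRNPA3: gcggaaaacgCGTCAcgTGACGactggccc
LOC105373759: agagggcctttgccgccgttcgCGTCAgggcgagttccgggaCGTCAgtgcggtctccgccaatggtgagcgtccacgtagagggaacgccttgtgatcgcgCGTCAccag

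RBM23 was the only one of the 6 windows with no TGACG on either strand, and part of its proximal promoter is shown. This part lies outside the deposited peak, and the sequence under the summit was not searched. The stretch runs from −60 to −1 at chr14:22919150-22919209 on the minus strand. Capitals mark a palindrome that matches the NRF1 motif GCATGCGC on both strands, and a CCAAT box read on the opposite strand as ATTGG.
RBM23: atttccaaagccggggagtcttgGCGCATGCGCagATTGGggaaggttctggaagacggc

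All 7 summits lay close to the TSS, from 26 to 229 bp away with a median of 75 bp. Across the genome, a summit no more than 1 kb from the TSS was found for 265 of 19974 protein-coding genes (1.33%). Since the 7 were picked from those, their count carries no further information. Upstream summits were found at HNRNPA3, TBL3, SRSF11 and CCNK, and summits downstream of the TSS, inside the transcribed region, at SMU1, RBM23 and NUFIP1. Among all 222 such peaks 132 had an upstream summit, so the split at the 7 is near that of the others. The peak covered the TSS itself at 6 of the 7 genes, a count for which no share over the other peaks was computed. At RBM23 it began 2 bp into the gene.

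**Figure D1:**
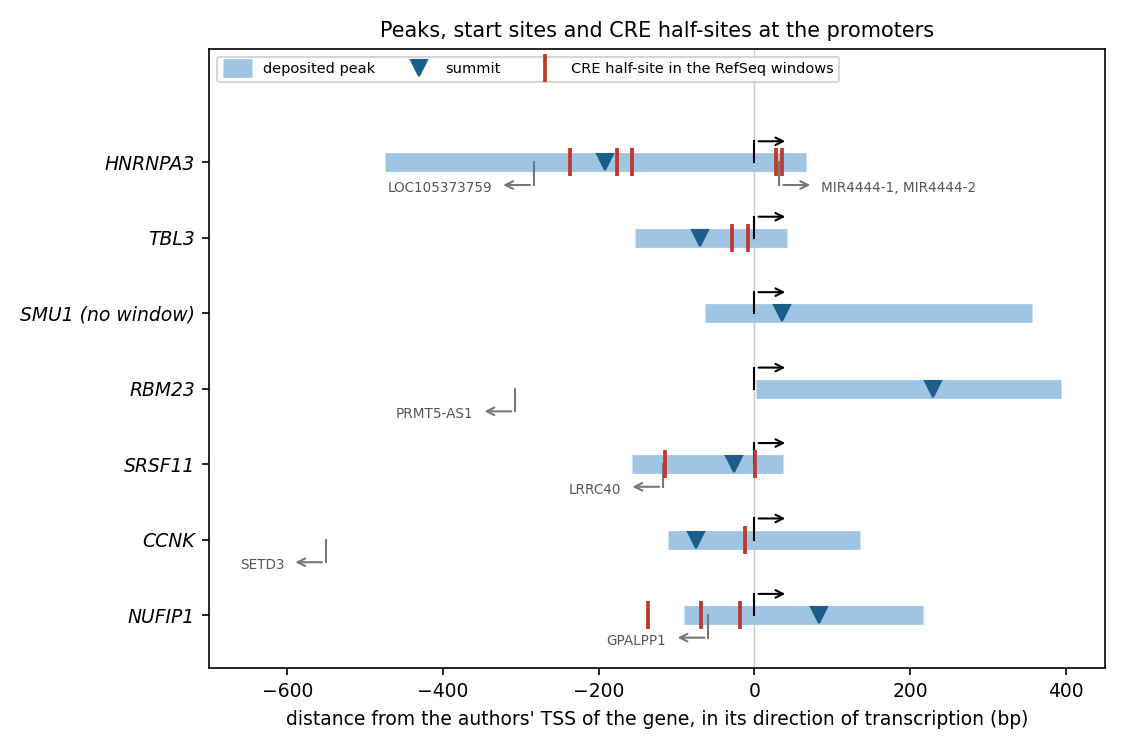
Deposited peaks (bars), summits (triangles), start sites (arrows, grey for genes sharing the peak) and TGACG or CGTCA matches (red ticks, CRE half-sites) at the 7 genes, in bp from the authors' TSS in the direction of transcription. Matches come from the RefSeq windows of the gene and of the genes sharing its peak, and SMU1 has no window. Summits lie within 229 bp of the TSS, and the RBM23 peak is the one that begins downstream of its TSS.

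HNRNPA3 encodes an hnRNP A/B family protein that binds pre-mRNA and mRNA. Its peak spanned 541 bp of chromosome 2 (177212220 to 177212760), the widest of the 7, with a fold enrichment of 9.88 over the peak caller's background. The summit held 12 fragments (95% Poisson interval 6.20 to 21.0) over an expected 0.316. These intervals cover counting error only. The authors' TSS for HNRNPA3 lay 192 bp downstream of the summit, while that of the divergent lncRNA gene LOC105373759 lay 91 bp from it on the other side. MIR4444-1 and MIR4444-2, both listed by the authors at 1 position, were 224 bp away. The peak was thus nearer to another start than to that of HNRNPA3. The RefSeq TSS of HNRNPA3 is 100 bp further downstream than the authors' TSS.

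TGACG matches lay on both sides of this summit. In the LOC105373759 window 3 matches were found, and the nearest, within the sequence ACGTCA, had its centre 15 bp from the summit. A CCAAT box in the same window, at −91, was closer, its centre 2 bp from the summit. The pair in the HNRNPA3 window shown above overlaps the E-box CACGTG, which shares letters with both matches, and lay 220 and 227 bp from the summit, still inside the peak.

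TBL3, also called UTP13, is a WD-repeat subunit of the small-subunit processome, which cuts the precursor of 18S ribosomal RNA. Its peak spanned 196 bp of chromosome 16 (1971900 to 1972095), with a fold of 9.62 and 11 fragments (5.49 to 19.7) over 0.247. No other symbol of the table had its TSS within 1 kb of the summit, which lay 70 bp upstream. Of 14 other symbols within 50 kb, the nearest was RNF151, at 5.13 kb. Several of the 14 belong to ribosome production and others do not. The former were picked out after they were seen, and no share for other loci was computed, so nothing is read from them. RPS2, a small-subunit ribosomal protein gene, and the snoRNA genes SNORA78, SNORA64 and SNORA10 started 6.80 to 9.52 kb away, as did SNHG9, a snoRNA host gene, at 6.99 kb. Both core matches of TBL3 lay between the summit and the TSS, at −31 and −10, the first extended to ACGTCA. They were 41 and 62 bp from the summit. The YY1 motif AAGATGGC, at −64, had its centre 9.5 bp from it.

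NUFIP1 is a nuclear RNA-binding protein that acts in the assembly of box C/D snoRNPs, the particles that guide rRNA methylation. Its peak on chromosome 13 (44989254 to 44989562) was the weakest of the 7 in fold, 5.20, with 6 fragments (2.20 to 13.1) over 0.346. The summit lay 83 bp inside NUFIP1 and 142 bp upstream of the divergent gene GPALPP1, and the authors' start sites of the 2 genes are 59 bp apart. NUFIP1 had the most core matches of the 6 windows, 3. Those at −70, within TGACGT, and at −20 lay inside the peak, 151 and 101 bp from the summit. The third, at −139, lay outside it.

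SMU1 encodes a WD-repeat protein of the spliceosome that works with its partner IK in activating the complex. The SMU1 peak on chromosome 9 (33076318 to 33076738) had the most fragments of the 7, 13 (6.92 to 22.2), over the highest background, 0.544, which gave a fold of 9.07. The summit lay 35 bp downstream of the TSS. No other TSS of the table lay within 1 kb, and the nearest, MIR12117, was 32.1 kb away.

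SRSF11 encodes an SR-family splicing regulator, and RBM23 an RNA-binding protein related to the splicing coactivator RBM39. Both peaks held 10 fragments (4.80 to 18.4). The SRSF11 peak on chromosome 1 (70205539 to 70205733) had a fold of 8.36 over 0.316, its summit 26 bp upstream of SRSF11 and 91 bp upstream of the divergent gene LRRC40, with 117 bp between the start sites. One core match sat at each start, at −117 and −1 counted from SRSF11, and the summit lay between them, 27 bp from the nearer.

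The RBM23 peak on chromosome 14 (22918755 to 22919147) had a fold of 8.39 over 0.312. Its summit, 229 bp inside the gene, was the farthest from a TSS of the 7. The lncRNA gene PRMT5-AS1 started 536 bp from the summit, and PRMT5, an arginine methyltransferase that acts on Sm proteins of the spliceosome, 10.5 kb away. The RBM23 window ends 50 bases into the gene and covers 48 of the 393 bp of the peak, so the sequence under the summit was not searched.

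CCNK encodes cyclin K, the partner of the kinases CDK12 and CDK13, which phosphorylate the tail of RNA polymerase II during elongation. Its peak on chromosome 14 (99481298 to 99481544) had a fold of 5.62 and 6 fragments (2.20 to 13.1) over 0.246. The summit lay 75 bp upstream of CCNK and 475 bp upstream of SETD3, a divergent methyltransferase gene. A single core match, within TGACGT at −14, lay 63 bp from the summit. A CCAAT box at −83, on the opposite strand, was closer, 6 bp away. The YY1 motif AAGATGGC followed at 14 bases past the TSS.

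**Figure D2:**
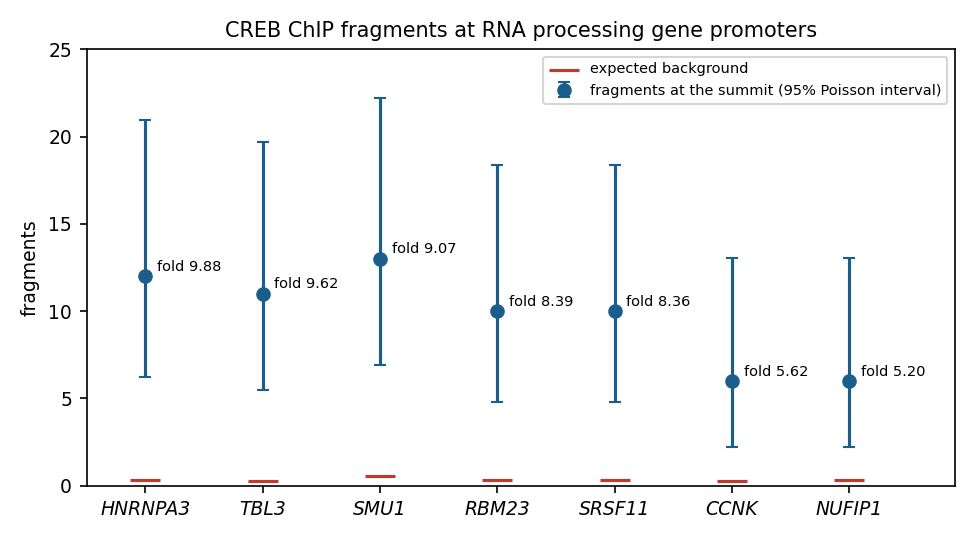
Fragments at the summit of each of the 7 peaks (points, with 95% Poisson intervals) and the peak caller's expected background (red marks), with the deposited fold beside each point. Fragments run from 6 at CCNK and NUFIP1 to 13 at SMU1, and the intervals overlap throughout.

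Of the 7 folds, 5 were above 8 and 2 below 6. Fragments ranged from 6 to 13 with a median of 10, and the Poisson interval of each gene overlapped that of every other, so their order is not resolved at this depth. Backgrounds ranged from 0.246 to 0.544 fragments, beside a median of 0.277 over all 222 promoter peaks, meaning those whose summit and a protein-coding TSS are at most 1 kb apart. Widths ranged from 195 to 541 bp with a median of 309 bp, beside a median of 232.5 bp for promoter peaks.

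Against the other promoter peaks, the fold of 6 of the 7 was above the median of 5.61, and that of 5 was above the upper quartile of 7.22. They ranked from 17 (HNRNPA3) to 136 (NUFIP1) among the 222, and from 220 to 2657 among all 5285 peaks. A −log10 q of at least 5 was reached by 5 of the 7 and by 39.6% of promoter peaks, and CCNK (4.11) and NUFIP1 (3.29) were below it. The genes were picked with these values known, so nothing is read from this.

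The peaks nearest in fold were ZNF672, equal to HNRNPA3 at 9.88 with 12 fragments, and MRPL55, just below at 9.63. TFIP11, which acts in taking apart the spliceosome after splicing, equalled NUFIP1 at 5.20 with 6 fragments, and AOPEP stood just below at 5.13. Likeness here is that of 1 value in 1 library.

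**Figure D3:**
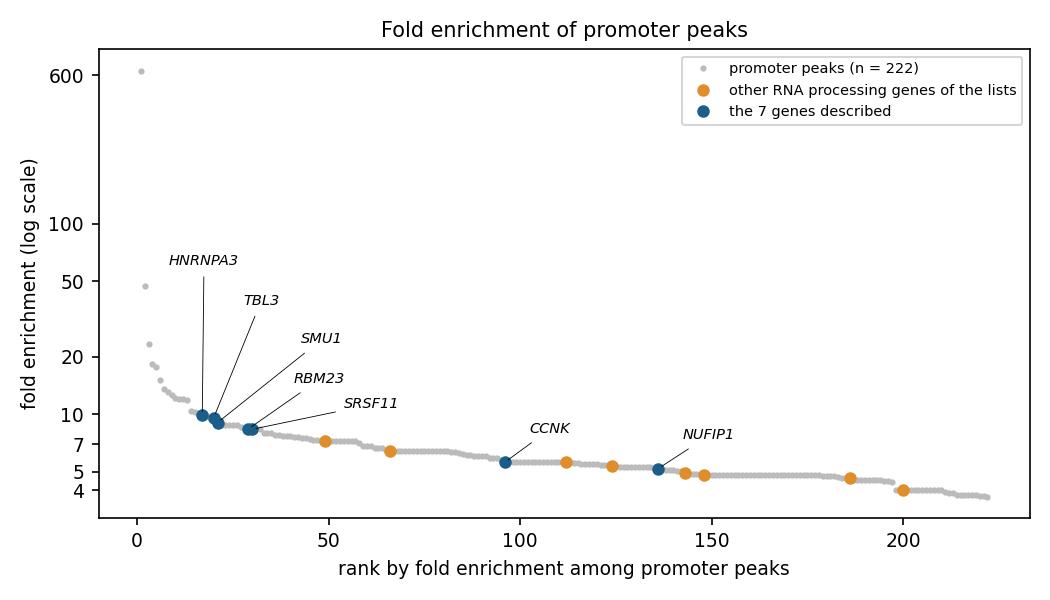
Fold enrichment (log axis) of the 222 promoter peaks by rank, with the 7 genes in blue and 8 other RNA processing genes of the lists in orange. HNRNPA3, TBL3, SMU1, RBM23 and SRSF11 rank between 17 and 30, and CCNK and NUFIP1 at 96 and 136.

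At 5 of the 7 genes the summit had the TSS of another symbol within 1 kb, against 31.5% of promoter peaks. A gene on the opposite strand was among them at each of the 5, a count for which no share over promoter peaks was computed: LOC105373759, LRRC40, PRMT5-AS1, GPALPP1 and SETD3. The distance between the paired start sites ran from 59 bp (NUFIP1 and GPALPP1) to 550 bp (CCNK and SETD3). The data do not assign such a peak to 1 gene of the pair. Only TBL3 and SMU1 had the peak to themselves within 1 kb.

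The CRE core was common in these promoters, near its share in promoter-peak genes in general. The genes were picked for their CREB peaks, so the fitting comparison is with those genes. TGACG on either strand was found in 5 of the 6 windows, against 27.8% of 22012 windows of protein-coding genes and 75.6% of the 205 windows of genes with a promoter peak. The latter include the 6, and divergent pairs share part of their sequence. The longer TGACGT occurred in 3 of 6 (TBL3, NUFIP1 and CCNK), against 8.9% of all windows and 54.1% of those with a peak. The complete TGACGTCA, which contains both shorter forms, was found in 0 of 6, against 2.25% of all windows and 28.3% of those with a peak. A window without a match says only that these letters are not in those 300 bases.

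In the 5 windows there were 10 matches, all starting upstream of the RefSeq TSS, and 9 lay inside the deposited peak. The nearer match of SRSF11 begins just before the TSS and runs past it. The windows reach further upstream than downstream, which by itself favours upstream matches. No share over windows of genes with a promoter peak was computed for the upstream or the in-peak count, so nothing is read from either. The nearest match in a gene's own window was 27 bp from the summit at SRSF11, 41 bp at TBL3, 63 bp at CCNK, 101 bp at NUFIP1 and 220 bp at HNRNPA3. The summit itself lay inside the window at SRSF11, TBL3 and CCNK, and outside it at HNRNPA3, NUFIP1 and RBM23.

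Other promoter motifs were searched in the same way, both strands. The GC box GGGCGG was in 5 of 6 windows (56.3% of all windows and 65.4% of those of genes with a promoter peak). The CCAAT box CCAAT was in 3 of 6 (34.7% and 46.3%), of which RBM23 held 4 copies. The YY1 motif AAGATGGC was in TBL3 and CCNK (3.54% and 8.29%), and GCATGCGC in RBM23 alone (3.71% and 2.44%). The E-box CACGTG was in HNRNPA3 alone (8.32% and 9.76%), and TATAAA in TBL3 alone (9.49% and 5.37%), 224 bases upstream. The ETS motif CCGGAAG was in none of the 6 (12.8% and 25.4%). With 6 windows these counts are a description of the promoters and not of a group.

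**Figure D4:**
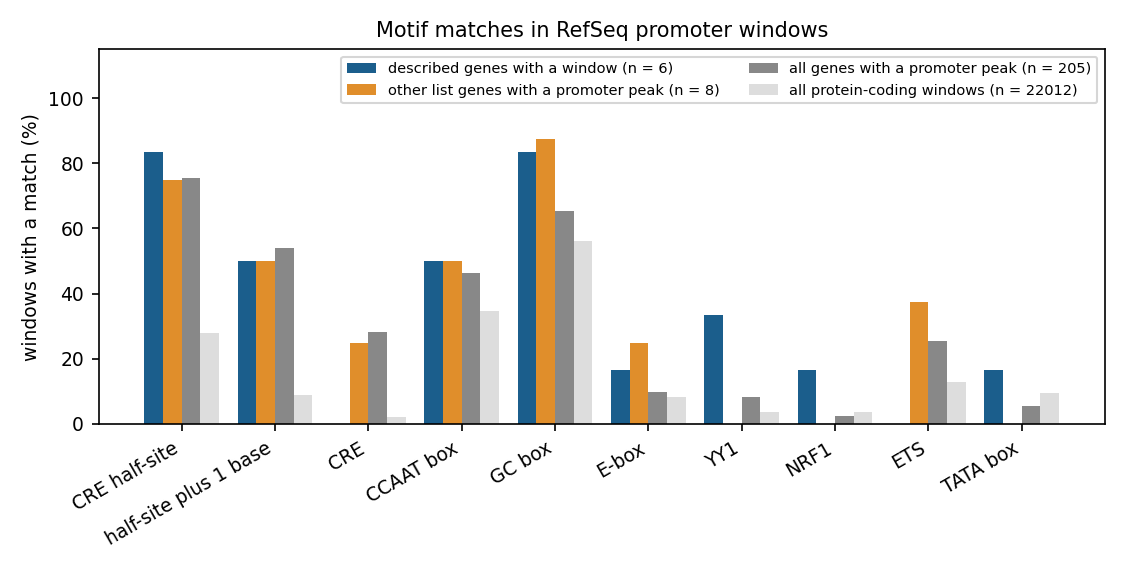
Share of RefSeq promoter windows with a match on either strand, in percent, for the 6 genes with a window, 8 other list genes with a promoter peak, all genes with a promoter peak (205 windows) and all protein-coding genes (22012 windows). TGACG (the CRE half-site) is in 75.6% of windows of genes with a promoter peak and 27.8% of all, and TGACGTCA in 28.3% and 2.25%.

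GC content ran from 52.3% (RBM23) to 70.0% (HNRNPA3), with a median of 64.0%, beside 62.3% over all windows. CpG dinucleotides numbered from 13 (RBM23) to 40 (HNRNPA3), with a median of 27.5, beside 21 over all windows and 26 over windows of genes with a promoter peak. Whether base composition bears on the motif counts was not tested.

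The wider machinery was examined in 6 lists of 259 genes, written with earlier results of these data known. A summit within 1 kb was found at 15 of them, 7 being the genes above. Of the other 252 genes 8 had one (3.17%), beside the 1.33% of all protein-coding genes. Within 50 kb a peak was paired with 35 of the 259 (13.5%), beside 8.47% of all. The 35 include the 7 genes chosen for their peaks, so that share is raised by the choice. The 8 had folds from 4.01 to 7.22 with a median of 5.14, beside 5.61 for all 222 promoter peaks and 8.39 for the 7. Since the 7 were picked in view of their peaks, nothing is read from that difference.

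The counts by role include the 7 genes, which were chosen for their peaks. Without them they were 1 of 20 for SR proteins, 3 of 57 for the spliceosome core and 1 of 27 for hnRNPs. They were 0 of 65 for snoRNP and rRNA processing, 1 of 42 for elongation and 2 of 41 for the last list. The share of all protein-coding genes was 1.33%. SR and SR-related proteins had 3 of 22 genes marked, SRSF11, RBM23 and ACIN1, an apoptosis- and splicing-linked partner of the exon junction complex (fold 6.42, 7 fragments, 329 bp inside the gene, shared with C14orf119). The spliceosome core had 4 of 58. Beside SMU1 these were XAB2, a subunit of the Prp19-associated complex (fold 7.22, 8 fragments, 156 bp upstream, shared with PET100), EFTUD2, the U5 snRNP GTPase (4.93, 6 fragments, shared with CCDC103), and CWC22, a splicing factor that loads the exon junction complex (4.01, 4 fragments). The hnRNP list had 2 of 28, HNRNPA3 and HNRNPH2 (4.82, 5 fragments, shared with GLA).

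The snoRNP and rRNA processing list had 2 of 67, TBL3 and NUFIP1, and none of its other 65 genes. NOL10, a nucleolar processome protein, lay just outside the 1 kb limit, with a summit 1033 bp from the TSS (fold 4.54). In the other lists, a peak between 1 and 10 kb away was found for HNRNPUL1 at 1.56 kb (4.59) and SUPT5H, an elongation factor, at 2.14 kb (4.01).

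Transcription elongation had 2 of 43, CCNK and LARP7, which holds the 7SK RNA that restrains the elongation kinase P-TEFb (5.36, 6 fragments, 197 bp inside the gene, shared with ZGRF1). The list of 3′ end processing, exon junction complex and mRNA export had 2 of 41. MAGOH, a core subunit of the exon junction complex, had a fold of 4.64 with 5 fragments, at a summit shared with LOC100507564. CPSF6, a subunit of cleavage factor I, had a fold of 5.60 with 17 fragments (9.90 to 27.2) over a background of 2.21, the highest background of the 15 genes.

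The CRE core was in 6 of the 8 windows of these other genes, beside 75.6% of windows of genes with a promoter peak, and TGACGTCA in 2, MAGOH and LARP7, beside 28.3%. These counts are near those of promoter-peak genes in general. Of the 14 core matches in these windows, 10 lay inside the deposited peak, and the only match of CWC22 lay outside it. No share of matches inside the peak was computed for promoter-peak genes in general. At LARP7 the RefSeq TSS is 179 bp from the authors' TSS. There TGACGTCA lay 243 bases upstream of the RefSeq TSS, outside the peak and 257.5 bp from the summit. At MAGOH it lay 32 bases upstream and inside the peak, and the stretch from −60 to 3 at chr1:53238515-53238578 on the minus strand is shown because it holds the complete palindrome within a peak of few fragments. The XAB2 stretch from −60 to −1 at chr19:7629546-7629605 on the minus strand holds 2 of its 3 core matches. Capitals again mark TGACG or CGTCA.
MAGOH: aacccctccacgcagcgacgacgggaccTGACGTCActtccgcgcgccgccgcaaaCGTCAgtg
XAB2: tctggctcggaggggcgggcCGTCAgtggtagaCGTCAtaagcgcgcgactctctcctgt

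In CPSF6 the single match lay 2 bp from the summit, the closest among the 14 list genes with a window. The MAGOH peak rested on 5 fragments (1.62 to 11.7).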

How the data were processed

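CREB ChIP DNA and input DNA of NGP cells were sequenced, 1 library each. The submitters' processing notes name Bowtie2, MACS2 and hg38. Versions, settings and the control used were not given in the sources used here. For each peak the authors deposited its fold (a ratio), −log10 p, −log10 q and a score, which is 10 times the −log10 q cut to a whole number (5285 of 5285 peaks). Their second deposited table pairs peaks with refGene TSS within 50 kb.

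Both were joined by peak name, and symbols matched to 19974 RefSeq protein-coding genes (GRCh38.p14). Fragments were recovered from fold, read as (fragments + 1) / (background + 1), and from p, read as a Poisson tail. A whole number gave the −log10 p within 0.001 (above 100, within a relative 1e-05) for all 5285 peaks. Total depth is unknown. Each gene's window was the RefSeq one nearest to the authors' TSS. Recovery and motif search were tested on simulated data (Python 3.11.15, SciPy 1.17.1). There was no test between groups.

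The genes, lists and motifs were chosen with earlier results of these data known. By rule the text names the 7 genes, symbols sharing their peaks within 1 kb, list genes with a peak within 10 kb, and neighbours in rank of fold. More distant symbols at TBL3, SMU1 and RBM23, and the genes of the closing section, were chosen after their values were seen. Alternatives were other distances, stricter q, other motif forms and windows, other ranks and another fragment estimate.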

Additional observations from a re-analysis of the deposited data

How the results depend on the processing

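With 1 ChIP library no replicate could be left out. All 7 genes kept a summit within 500 bp and at a −log10 q of at least 2, while RBM23 was lost at 200 bp, and CCNK and NUFIP1 at a −log10 q of at least 5. The 15 list genes became 8 at that q, and 13 to 18 under the other settings, while the count over all protein-coding genes went from 265 to 106 at that q, and from 186 to 391 under the others. The 5 promoters with TGACG became 3 with TGACGT (8.9% of all windows) and 0 with TGACGTCA (2.25%), and remained 5 in the upstream 250 bases alone, inside the deposited peak and with the windows of genes sharing the peak. The share of all windows with TGACG, 27.8%, was 24.1% upstream alone and 29.4% with 1 window per gene, and 75.6% in windows of genes with a promoter peak. The settings of 1 window per gene, windows of genes with a promoter peak, the deposited peak and the windows of sharing genes were chosen after seeing the data. Fold times background gave a median of 2.61 in place of 10 fragments, since that product leaves out the pseudocount of 1, which exceeds the background. The median rank of 29 held by −log10 q and by fragments. Sharing of the peak stood at 4 within 500 bp and 5 within 5 kb. Peaks of 6 to 13 fragments at the 7 genes, and of 4 to 17 at the 8 other list genes, do not resolve an order among genes.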

Other observations

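Promoter peaks also lay at RNA genes outside the lists, chosen here after their values were seen. The 12 examined had folds from 4.01 to 8.36 with a median of 5.66. They are not all the RNA genes with a promoter peak. METTL1, a tRNA methyltransferase gene, was not among them and had a higher fold, 10.3, with 40 fragments over a background of 2.97. The roles of the 12 range from the cap to splicing and tRNA maturation. NCBP1, the large subunit of the nuclear cap-binding complex, had a fold of 8.36 with 10 fragments (4.80 to 18.4, the 95% Poisson interval). Its summit lay 42 bp before the TSS, within 1 kb of that of TSTD2. CMTR1, a cap methyltransferase, had a fold of 5.09 with 6 fragments. INTS7 of the Integrator complex, which processes snRNA ends, had a fold of 7.60, and DTL starts within 1 kb of the same summit. RNPS1, a splicing activator of the exon junction complex, had 6.42 (shared with LOC106660606), and C1D, a cofactor of the nuclear exosome, 7.57. RBM42, an RNA-binding protein, had 8.36, with its summit 17 bp upstream. Among genes for tRNA maturation enzymes, DUS2 and DUS4L, which reduce uridines in tRNA, had 5.75 (shared with DDX28) and 5.07 (shared with COG5 and DUS4L-BCAP29), and ELAC2, the tRNA 3′ end nuclease, 4.01 with 4 fragments. PPIG, a cyclophilin of nuclear speckles, had 5.57, the helicase gene DDX49 5.46 (shared with COPE), and TFIP11 5.20 (shared with LOC100507599).

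Of the 9 of these genes with a RefSeq window, 8 held TGACG, beside 75.6% of windows of genes with a promoter peak and 27.8% of all windows. The complete TGACGTCA was in 5, beside 28.3% and 2.25%, namely RBM42, INTS7, RNPS1, DUS2 and CMTR1. At RBM42 and CMTR1 it lay 24 bases upstream of the TSS. Since these genes were picked after their values were seen, no difference from other genes is read from the counts.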
